A study of Mus musculus with 22 samples.

Results

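Transcript levels of 10 oxidative stress response genes were followed across 22 mouse liver tumours. The genes were taken by symbol from both deposited expression tables: Nfe2l2, Keap1, Srxn1, Txnrd1, Nqo1, Hmox1, Gclc, Gclm, Slc7a11 and G6pdx. All 10 were found among the 24063 genes of the first table (set 1) and among the 24019 genes of the second (set 2), and all 10 passed the filter on low values in both.

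The host mice were C57BL/6, and the drivers were given by hydrodynamic injection into the tail vein, a fast high-volume delivery of plasmids that reaches mainly hepatocytes. MYC was part of every genotype, in all groups alike, so no group shows these genes without it. The second driver was either β-catenin (CTNNB1) or loss of p53, which the names of the set 2 tumours give as a guide RNA against p53 (sgp53). Each pair of drivers came with lucOS, a luciferase joined to model antigen peptides, or with luciferase alone (luc). Set 1 held 2 lucOS β-catenin, 3 lucOS p53, 4 luc β-catenin and 3 luc p53 tumours. Set 2 held 3 lucOS β-catenin, 3 luc β-catenin and 4 lucOS p53 tumours. The animals' age is not given in the sources used here, none was treated, and RNA came from whole tumours, so that fewer cells of a type and less RNA per cell cannot be told apart. Whether every tumour is from a different mouse is not stated, and the p-values thus measure only the spread between these samples, which may be technical.

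NRF2, the protein of Nfe2l2, is a transcription factor that KEAP1 holds in the cytoplasm and passes to the ubiquitin ligase for breakdown. Electrophiles and oxidants modify cysteines of KEAP1, NRF2 then accumulates, pairs with small MAF proteins and binds antioxidant response elements beside genes for quinone reduction, thiol repair, glutathione synthesis, heme breakdown and NADPH supply. In the liver this system is known for its part in handling reactive drugs and metabolites.

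Depth ran from 33.706 M to 54.873 M reads over genes per tumour in set 1 and from 33.551 M to 50.116 M in set 2. Values below are normalised reads, that is, reads divided by 1 factor per tumour, and differences are β-catenin minus p53 on the scale of log2(value + 1) unless said otherwise. Axin2, a feedback target of β-catenin, lay between 868 and 3586 in the β-catenin tumours of set 1, against 12.2 to 103 in its p53 tumours. In set 2 Axin2 lay between 349 and 1047 in β-catenin tumours, against 2.38 to 11.0 in p53 tumours. Trp53 was higher in β-catenin tumours by log2 1.28 in set 1 and 0.95 in set 2 (limma adjusted p = 0.000468 and 0.0237), and neither gene overlapped between drivers in either set. Glul, also set as a check of the drivers, was less clear. It was higher by log2 3.79 among luc tumours of set 1 and 2.46 averaged over set 1 (limma adjusted p = 0.000917 and 0.00119). Among lucOS tumours Glul overlapped between drivers and was not called, at 1.14 in set 1 and 0.61 in set 2 (limma adjusted p = 0.244 and 0.134). The 9 hepatocyte markers summed to between 1195460 and 1461430 in the β-catenin tumours of set 1, against 607135 to 995175 in its p53 tumours. In set 2 these sums overlapped, at 374449 to 1161960 in β-catenin tumours and 422768 to 689382 in p53 tumours. None of these markers was at 0 in a group, and the part of hepatocyte content in the differences below was not tested. The median difference over all genes tested was log2 -0.16 in both sets, and rescaling the tumours (TMM) took it to 0.00 and -0.01.

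Srxn1, the gene for sulfiredoxin, was the member that separated the drivers in every comparison, with luc and with lucOS alike, and its means among the lucOS tumours of set 2 differed 9.71-fold. Nfe2l2 itself, Txnrd1 and Nqo1 were also higher in the β-catenin tumours of set 1, while Keap1 and Gclc lay near 0. In set 1, with luc and lucOS averaged, 4 of the 10 genes rose in β-catenin tumours (limma adjusted p under 0.05) and none fell, where 9.73% of the 16108 genes tested rose and 18.6% fell. Among luc tumours Nfe2l2, Srxn1 and Nqo1 rose and none fell, against 5.93% and 9.16% of all genes. Among lucOS tumours of set 1 only Srxn1 rose and none fell, against 1.62% and 2.59% of all genes. In set 2, which has no luc p53 tumours, Srxn1 alone rose and none fell, against 6.08% and 10.9% of the 15625 genes tested.

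Short stretches of promoter are shown because most of these genes are textbook targets of NRF2, and what regulates them in these tumours was not tested. RefSeq windows of 300 bases around annotated starts on GRCm38.p6 were at hand for 8 of the 10 genes, all but Gclc and Hmox1. The core of the antioxidant response element, TGACNNNGC on either strand, was found in the windows of 5 genes, and the E-box CACGTG bound by MYC in none. Of all 27025 genes with windows, 14% held the first and 8.09% the second in at least 1 window. Each stretch below is given 5′ to 3′ on the strand of its gene, with the match in capitals (matches on the opposite strand read GCNNNGTCA).
Nfe2l2: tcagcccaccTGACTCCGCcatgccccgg
Srxn1: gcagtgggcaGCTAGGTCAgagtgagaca
Txnrd1: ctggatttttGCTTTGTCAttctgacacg
Gclm: gctcccgggcGCACCGTCAactctcacga
G6pdx: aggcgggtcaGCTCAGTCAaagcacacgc
The match began 240 bases before the start in Nfe2l2, 92 before the second of 3 annotated starts in Txnrd1, 134 before it in Gclm and 57 before it in G6pdx, and 28 bases after it in Srxn1. No match was present in the windows of Keap1, Nqo1 and Slc7a11, which says only that these letters are not in those windows. The 250 bases before the start are also shown for the 4 genes that rose in set 1, with capitals as above: Nfe2l2 (chr2:75704664-75704913, minus strand), Srxn1 (chr2:152105274-152105523, plus strand), the second start of Txnrd1 (chr10:82858956-82859205, plus strand) and Nqo1 (chr8:107403206-107403455, minus strand). The match of Srxn1 lies after its start and so is not among them.
Nfe2l2: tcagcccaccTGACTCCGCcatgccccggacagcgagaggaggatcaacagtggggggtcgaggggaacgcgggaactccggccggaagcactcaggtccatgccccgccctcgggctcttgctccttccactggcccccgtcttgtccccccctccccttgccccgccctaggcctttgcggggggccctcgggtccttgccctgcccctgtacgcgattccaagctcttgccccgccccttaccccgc
Srxn1: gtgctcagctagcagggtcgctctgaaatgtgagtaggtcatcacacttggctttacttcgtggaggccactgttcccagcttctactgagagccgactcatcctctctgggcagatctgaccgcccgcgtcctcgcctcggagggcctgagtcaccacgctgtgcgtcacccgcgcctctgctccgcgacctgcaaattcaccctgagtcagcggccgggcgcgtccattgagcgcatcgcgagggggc
Txnrd1: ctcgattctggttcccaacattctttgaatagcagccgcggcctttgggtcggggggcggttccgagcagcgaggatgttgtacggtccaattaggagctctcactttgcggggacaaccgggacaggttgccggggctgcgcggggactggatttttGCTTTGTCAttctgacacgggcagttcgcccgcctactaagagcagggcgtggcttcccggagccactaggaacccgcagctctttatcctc
Nqo1: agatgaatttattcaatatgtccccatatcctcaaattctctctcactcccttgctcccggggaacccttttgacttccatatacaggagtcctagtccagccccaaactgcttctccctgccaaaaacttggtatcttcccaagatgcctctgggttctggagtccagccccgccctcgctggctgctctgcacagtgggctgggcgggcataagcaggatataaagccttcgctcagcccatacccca

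Levels of different genes can be compared only per length. Per kilobase of transcript, the median over the 12 tumours of set 1 was highest for Txnrd1 (2156 normalised reads per kilobase), Nfe2l2 (2149) and Gclc (1992). Gclm (1456), Keap1 (1431), Hmox1 (1121) and G6pdx (814) followed. Srxn1 stood at 447, Nqo1 at 136 and Slc7a11 at 2.65, so the cystine carrier was the least abundant of the 10 by a wide margin. The exons of G6pdx overlap Ikbkg, those of Keap1 overlap Gm16754 and those of Gclm overlap Gm17494 on the opposite strand and Gm6061 on the same one. The labels do not say whether strand was kept, so reads of these pairs cannot be told apart.

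**Figure D1:**
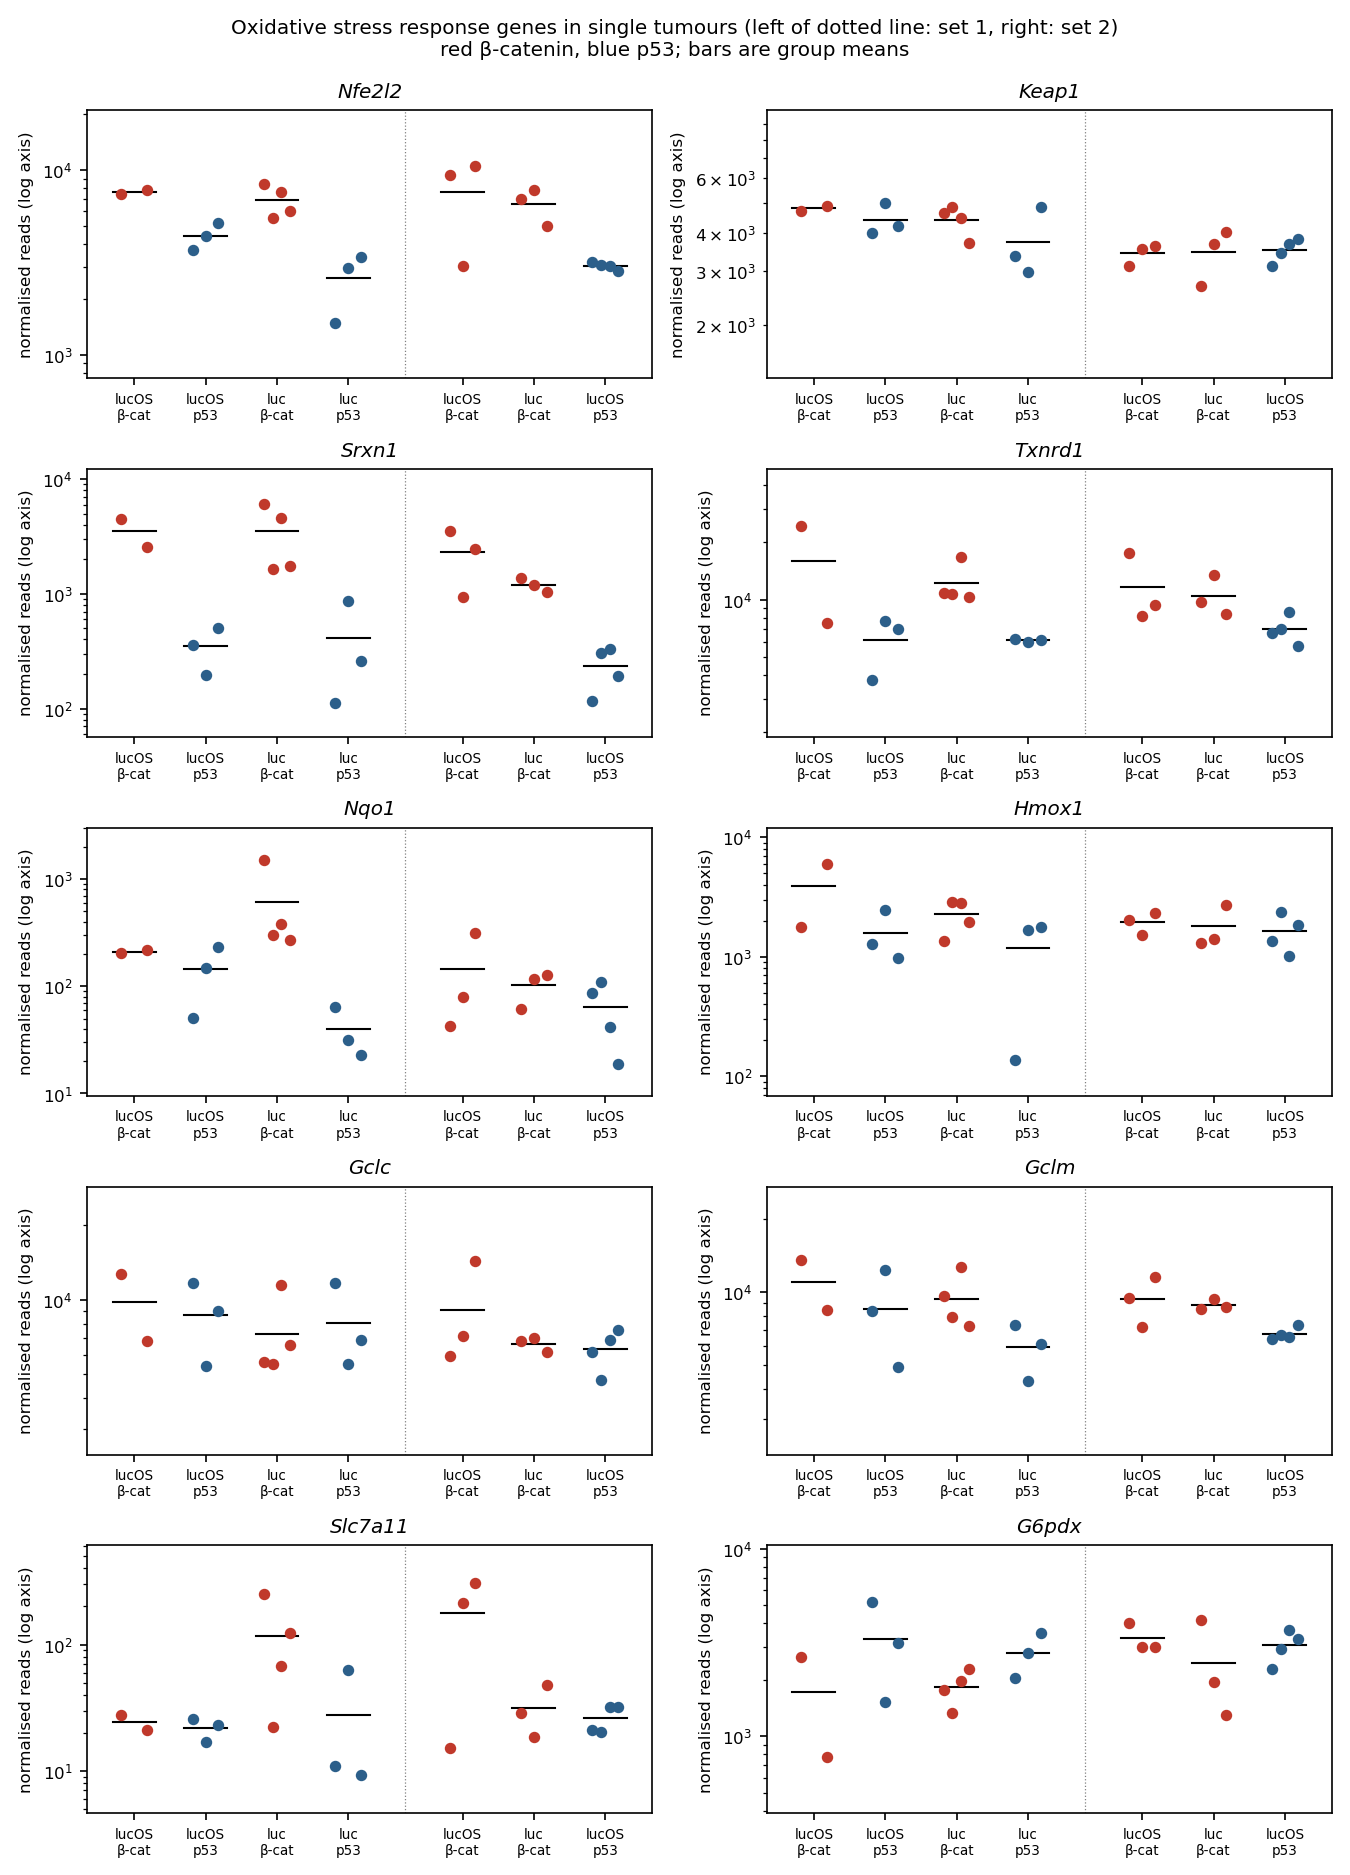
Normalised reads (log axis) of each of the 10 genes in single tumours, with β-catenin tumours in red, p53 tumours in blue and bars at group means; set 1 lies left of the dotted line and set 2 right of it. The red points of Srxn1 lie above all blue points in both sets, from 1638 upwards against at most 874 in set 1 and from 930.4 upwards against at most 330.3 in set 2, while those of Keap1 and Gclc overlap with the blue ones.

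Nfe2l2 (chr2:75675513-75704641, minus strand), the gene for NRF2, had 8421, 5489, 7598 and 5994 normalised reads in luc β-catenin tumours 1 to 4, against 1495, 2944 and 3402 in luc p53 tumours 1 to 3. In the lucOS tumours of set 1 it had 7383 and 7798 in β-catenin tumours, against 3720.1, 4406 and 5151 in p53 tumours. All 6 β-catenin tumours of set 1 thus lay above all 6 p53 tumours, a separation in this direction that 4.71% of genes showed. The averaged difference was log2 1.12 (95% interval 0.66 to 1.58, adjusted p = 0.00376), and it was 1.46 among luc tumours (adjusted p = 0.00745) and 0.79 among lucOS tumours (adjusted p = 0.165). Group means fell in the order lucOS β-catenin (7590.4 ± 293, SD, n = 2), luc β-catenin (6875 ± 1368, n = 4), lucOS p53 (4426 ± 716, n = 3) and luc p53 (2613 ± 995, n = 3), and the values of the 2 β-catenin groups overlapped. In set 2 the lucOS β-catenin tumours had 9374, 3042 and 10534, the luc β-catenin tumours 6939, 7775 and 4986, and the lucOS p53 tumours 3193, 3054, 3016 and 2848. The p53 tumours were tightly grouped, and lucOS β-catenin tumour 2 lay among them while the other 5 β-catenin tumours were higher. The difference among the lucOS tumours of set 2 was log2 1.15 (0.32 to 1.98) and missed the threshold (adjusted p = 0.0602). Without lucOS β-catenin tumour 2 it was 1.72 (adjusted p = 0.00214), and TMM scaling, edgeR and DESeq2 called it with all tumours in (adjusted p = 0.0445, 0.0249 and 0.00106). Leaving out any other tumour gave 0.82 to 1.17 with adjusted p = 0.104 to 0.19. The names of p53 tumours 1 to 3 of set 2 begin with AL and those of p53 tumour 4 and all β-catenin tumours with JAX. Within the tumours named JAX the p53 side is thus 1 tumour, assumed to vary like the others, and the difference was 1.23 with an adjusted p of 0.627.

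Keap1 (chr9:21229730-21239361, minus strand), the adaptor that marks NRF2 for breakdown, had 4626, 4848, 4452 and 3696 in luc β-catenin tumours, against 3357, 2986 and 4829.9 in luc p53 tumours. Among the lucOS tumours of set 1 it had 4710.4 and 4891 in β-catenin tumours, against 3978, 4997 and 4209 in p53 tumours. Set 2 gave 3112, 3528 and 3624 in lucOS β-catenin tumours, 2684, 3676 and 4011 in luc β-catenin tumours, and 3107, 3425, 3671 and 3815 in lucOS p53 tumours. The groups overlapped throughout, and Keap1 had the narrowest range of the 10 genes in both sets. Its averaged difference in set 1 was log2 0.20 (-0.11 to 0.51, adjusted p = 0.325) and that in set 2 was -0.03 (-0.38 to 0.32, adjusted p = 0.901), so its intervals leave out changes of 2-fold in either direction.

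Srxn1 (chr2:152105516-152111376, plus strand) encodes sulfiredoxin, which reduces hyperoxidised peroxiredoxins back to their working state. In luc β-catenin tumours it had 6132, 1638, 4568 and 1762 normalised reads, against 113, 874 and 257 in luc p53 tumours. With lucOS in set 1 there were 4533 and 2576 in β-catenin tumours, against 361, 195 and 507 in p53 tumours. In set 2 it had 3505, 930.4 and 2455 in lucOS β-catenin tumours and 1364, 1205 and 1037 in luc β-catenin tumours, against 116, 306, 330.3 and 194 in lucOS p53 tumours. No p53 tumour reached the lowest β-catenin tumour of its set, a separation shown by 4.71% of genes in set 1 and 7.14% in set 2. The means of luc tumours were 3525 ± 2202 (SD, n = 4) for β-catenin and 415 ± 404 (n = 3) for p53. The means of lucOS tumours were 3555 ± 1384 (SD, n = 2) for β-catenin and 354 ± 156 (n = 3) for p53 in set 1, and 2297 ± 1295 (n = 3) and 237 ± 100.1 (n = 4) in set 2, a 9.71-fold ratio. The log2 differences were 3.35 among luc tumours (1.86 to 4.83, adjusted p = 0.0109), 3.37 among lucOS tumours of set 1 (1.60 to 5.14, adjusted p = 0.0451) and 3.19 in set 2 (2.14 to 4.24, adjusted p = 0.00469). The call among the lucOS tumours of set 1 rested on every one of them: it was lost when any 1 of the 5 tumours was left out (log2 2.96 to 3.78, adjusted p = 0.0715 to 0.167), in a fit of these groups alone (0.0743) and without the filter (0.0518). In set 2 the difference was 3.36 within the tumours named JAX, where a single p53 tumour remains, with an adjusted p of 0.188.

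Txnrd1 (chr10:82833951-82897712, plus strand) encodes the cytosolic thioredoxin reductase, which keeps thioredoxin reduced with electrons of NADPH. It had 10884, 10681, 16744 and 10353 in luc β-catenin tumours, against 6220.4, 5999 and 6154 in luc p53 tumours. Among lucOS tumours of set 1 the values were 24367 and 7535 in β-catenin tumours, against 3766, 7693 and 6959 in p53 tumours. The luc groups did not overlap, while among lucOS tumours the lower β-catenin tumour lay below the highest p53 tumour. Set 2 gave 17489, 8196 and 9334 in lucOS β-catenin tumours, 9684, 13403 and 8389.6 in luc β-catenin tumours, and 6649, 7014, 8633 and 5708 in lucOS p53 tumours, whose highest tumour lay above 1 lucOS and 1 luc β-catenin tumour. The averaged difference in set 1 was log2 1.08 (0.45 to 1.71, adjusted p = 0.0174), and without lucOS β-catenin tumour 1, whose level was the highest of all, it was 0.66 (adjusted p = 0.073). Taken singly, the differences did not pass: 0.96 among luc tumours (adjusted p = 0.0968), 1.21 among lucOS tumours (0.129) and 0.67 in set 2 (0.113), though DESeq2 called all 3 and edgeR none (adjusted p = 0.0575 to 0.0813). Within the tumours of set 2 named JAX, with 1 p53 tumour, it was 0.95 (adjusted p = 0.604).

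Nqo1 (chr8:107388225-107403206, minus strand), the quinone reductase most often used as a readout of NRF2, differed between drivers among the luc tumours of set 1. With luc it had 1504, 302, 383 and 272 normalised reads in β-catenin tumours, against 63.8, 31.8 and 23.1 in p53 tumours. With lucOS it had 205 and 217 in β-catenin tumours, against 50.9, 149 and 230.1 in p53 tumours. The luc groups were far apart and the lucOS groups overlapped, with the highest lucOS p53 tumour above both β-catenin tumours. The means with luc were 615 ± 594 (SD, n = 4) in β-catenin tumours and 39.6 ± 21.5 (n = 3) in p53 tumours, a 15.6-fold ratio that was 8.07-fold without luc β-catenin tumour 1, and the log2 difference was 3.66 (2.20 to 5.11, adjusted p = 0.00693). With lucOS the log2 difference was 0.80 (-0.94 to 2.54, adjusted p = 0.585), and averaged over both it was 2.23 (1.09 to 3.36, adjusted p = 0.01). The driver difference with lucOS was lower than that with luc by log2 -2.86 (-5.13 to -0.59), which had an unadjusted p of 0.0181 and did not pass over all genes (adjusted p = 0.9998). In set 2 Nqo1 had 42.2, 78.8 and 314 in lucOS β-catenin tumours and 61.4, 117 and 128 in luc β-catenin tumours, against 86.7, 109, 41.8 and 19.0 in lucOS p53 tumours. These groups overlapped, and the log2 difference among lucOS tumours was 0.94 (-0.75 to 2.62, adjusted p = 0.408).

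Hmox1 (chr8:75093621-75100589, plus strand) encodes heme oxygenase 1, which opens the heme ring and is abundant in macrophages that take up red blood cells. It had 1363, 2871, 2836 and 1965 in luc β-catenin tumours, against 137, 1662 and 1757 in luc p53 tumours. In the lucOS tumours of set 1 it had 1759 and 5977 in β-catenin tumours, against 1277, 2450.4 and 965 in p53 tumours. A single luc p53 tumour, number 1, lay far below all others of set 1, and apart from it the groups overlapped. Set 2 gave 2038, 1512 and 2322 in lucOS β-catenin tumours, 1304, 1413 and 2688 in luc β-catenin tumours, and 1355, 2371, 1021 and 1851 in lucOS p53 tumours, with full overlap. No difference passed: log2 1.36 averaged over set 1 (-0.01 to 2.72, adjusted p = 0.126) and 0.30 in set 2 (-0.45 to 1.04, adjusted p = 0.564). Without luc p53 tumour 1 the difference among luc tumours was 0.34 in place of 1.55. The 12 macrophage markers of set 1 summed to 2853 in that tumour, against 8753 to 24743 in the other 11 tumours, and to 21726 in the lucOS β-catenin tumour with 5977 normalised reads of Hmox1. The highest sum of set 1, 24743, was in luc β-catenin tumour 4, where Hmox1 stood at 1965. In set 2 the lowest sum, 7964, was in lucOS β-catenin tumour 3, where Hmox1 stood at 2322. These sums ran from 9285 to 24743 in the β-catenin tumours of set 1, against 2853 to 23125 in its p53 tumours, and no marker was at 0 throughout a group. Among the luc tumours, all 12 markers lay higher in β-catenin tumours, with a median of log2 2.02 and sums of 11480.1 to 24743, against 2853 to 19173 in p53 tumours. Of these, Marco and Cd163 rose by 4.22 and 3.12 (limma adjusted p = 0.0316 and 0.035), 7 had an unadjusted p under 0.05, DESeq2 called 3 and edgeR none, with 3 at an unadjusted p under 0.05. None was called in the averaged comparison of set 1 or among its lucOS tumours by any of the 3 tools or at an unadjusted p under 0.05, while in set 2 Clec4f, Vsig4 and Cd163 rose and Csf1r fell in lucOS β-catenin tumours. Over all genes tested, limma called 5.93% higher among luc tumours of set 1, and 6.08% higher and 10.9% lower in set 2. The share of all genes at an unadjusted p under 0.05 was not counted. The part of macrophage content in Hmox1 was not tested.

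**Figure D2:**
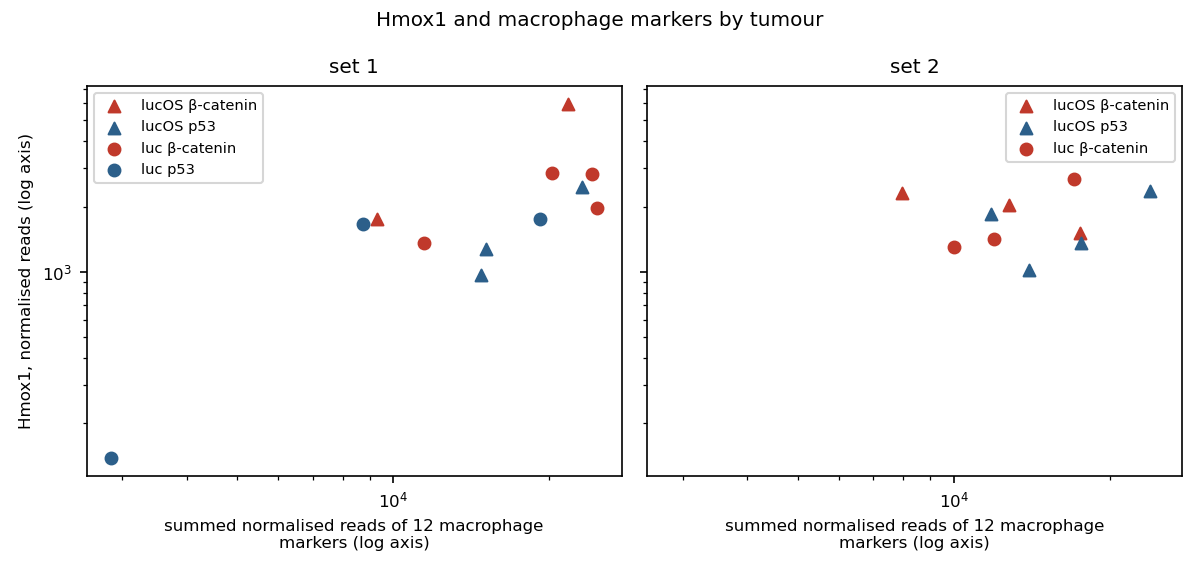
Normalised reads of Hmox1 (log axis) against the summed normalised reads of 12 macrophage markers (log axis), 1 point per tumour, with β-catenin tumours in red, p53 tumours in blue, triangles for lucOS and circles for luc. In set 1 luc p53 tumour 1 stands alone at the lower left, with a marker sum of 2853 and 137 normalised reads of Hmox1, and in set 2 the groups lie together.

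The 3 genes of glutathione supply did not move as 1 group. Gclc (chr9:77754535-77794485, plus strand), the catalytic subunit of glutamate cysteine ligase, had 5602, 5503, 11499 and 6544 in luc β-catenin tumours, against 11740.2, 5511 and 6854 in luc p53 tumours. With lucOS in set 1 there were 12716 and 6786 in β-catenin tumours, against 11680.5, 5399.7 and 8997 in p53 tumours. Its averaged difference was log2 0.02 (-0.62 to 0.65, adjusted p = 0.975). In set 2 it had 5916, 7114 and 14339 in lucOS β-catenin tumours, 6785, 6976 and 6133 in luc β-catenin tumours, and 6159, 4739.8, 6896 and 7584 in lucOS p53 tumours, where the highest value belonged to lucOS β-catenin tumour 3 and the other tumours overlapped. The difference there was 0.43 (-0.19 to 1.06, adjusted p = 0.3).

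Gclm (chr3:122245557-122270732, plus strand), the modifier subunit of the same ligase, leaned upwards in β-catenin tumours without passing. It had 9600.2, 7927, 12678 and 7215 in luc β-catenin tumours, against 7346, 4286 and 6127 in luc p53 tumours. Among lucOS tumours of set 1 the values were 13594 and 8404 in β-catenin tumours, against 8348, 12313 and 4907 in p53 tumours. Both pairs of groups overlapped, the luc pair only by the lowest β-catenin tumour. In set 2 it had 9488, 7174 and 11529 in lucOS β-catenin tumours and 8551, 9391 and 8647 in luc β-catenin tumours, against 6414, 6635, 6531 and 7294 in lucOS p53 tumours. Of the 6 β-catenin tumours there, only lucOS tumour 2 lay within the p53 range. The differences were log2 0.54 averaged over set 1 (-0.02 to 1.10, adjusted p = 0.133; 0.70 and 0.0483 without lucOS p53 tumour 2) and 0.46 in set 2 (0.11 to 0.81, adjusted p = 0.0699). The difference in set 2 was called under TMM scaling (0.0306), median centring (0.0416), edgeR (0.0305), DESeq2 (0.00294) and without lucOS β-catenin tumour 2 (0.0205). Without lucOS β-catenin tumour 3 it was 0.30 (0.202), and among JAX-named tumours, with 1 p53 tumour, 0.34 (0.725).

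Slc7a11 (chr3:49892526-50443614, minus strand) encodes the cystine carrier of the exchanger that brings in the cystine for glutathione synthesis. It had 250.4, 22.2, 68.0 and 124 normalised reads in luc β-catenin tumours, against 10.9, 62.4 and 9.22 in luc p53 tumours. In the lucOS tumours of set 1 it had 27.6 and 21.2 in β-catenin tumours, against 25.9, 16.9 and 23.0 in p53 tumours. Set 2 gave 15.3, 211 and 305 in lucOS β-catenin tumours, 28.5, 18.4 and 47.7 in luc β-catenin tumours, and 21.0, 20.2, 31.8 and 32.1 in lucOS p53 tumours. In each set 3 of the 6 β-catenin tumours stood above every p53 tumour, luc tumours 1, 3 and 4 in set 1 and lucOS tumours 2 and 3 and luc tumour 3 in set 2, while the others lay among the p53 tumours. The log2 differences were 2.09 among luc tumours (0.30 to 3.89, adjusted p = 0.102), 0.15 among lucOS tumours of set 1 (-1.99 to 2.30, adjusted p = 0.943) and 1.93 in set 2 (-0.03 to 3.90, adjusted p = 0.151). The difference in set 2 was called without lucOS β-catenin tumour 1, the low one (3.26, adjusted p = 0.00856), and by edgeR (2.91, adjusted p = 0.0372) and DESeq2 (2.91, adjusted p = 0.002). It was 1.14 without lucOS β-catenin tumour 3 (adjusted p = 0.429) and 1.62 among JAX-named tumours, with 1 p53 tumour (0.764). Among luc tumours of set 1 it was called by DESeq2 (0.0323) and without luc β-catenin tumour 2 (2.71, adjusted p = 0.0455), but not by edgeR (0.11).

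G6pdx (chrX:74409483-74429194, minus strand), the first enzyme of the pentose phosphate pathway and a source of NADPH, had 1762, 1327, 1971 and 2274 in luc β-catenin tumours, against 2045, 2774 and 3562 in luc p53 tumours. With lucOS in set 1 there were 2653 and 775 in β-catenin tumours, against 5217, 1523 and 3129 in p53 tumours. Set 2 gave 3999, 3003 and 2980.3 in lucOS β-catenin tumours, 4145, 1954 and 1294 in luc β-catenin tumours, and 2283, 2919, 3693 and 3303 in lucOS p53 tumours. The groups overlapped in each comparison, and G6pdx was the member whose difference in set 1 was below 0 with both constructs. It was log2 -0.81 averaged over set 1 (-1.60 to -0.03, adjusted p = 0.112) and 0.13 in set 2 (-0.63 to 0.90, adjusted p = 0.812). The averaged difference passed when lucOS β-catenin tumour 1 (-1.26, adjusted p = 0.0304) or lucOS p53 tumour 2 (-1.05, adjusted p = 0.0356) was left out.

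**Figure D3:**
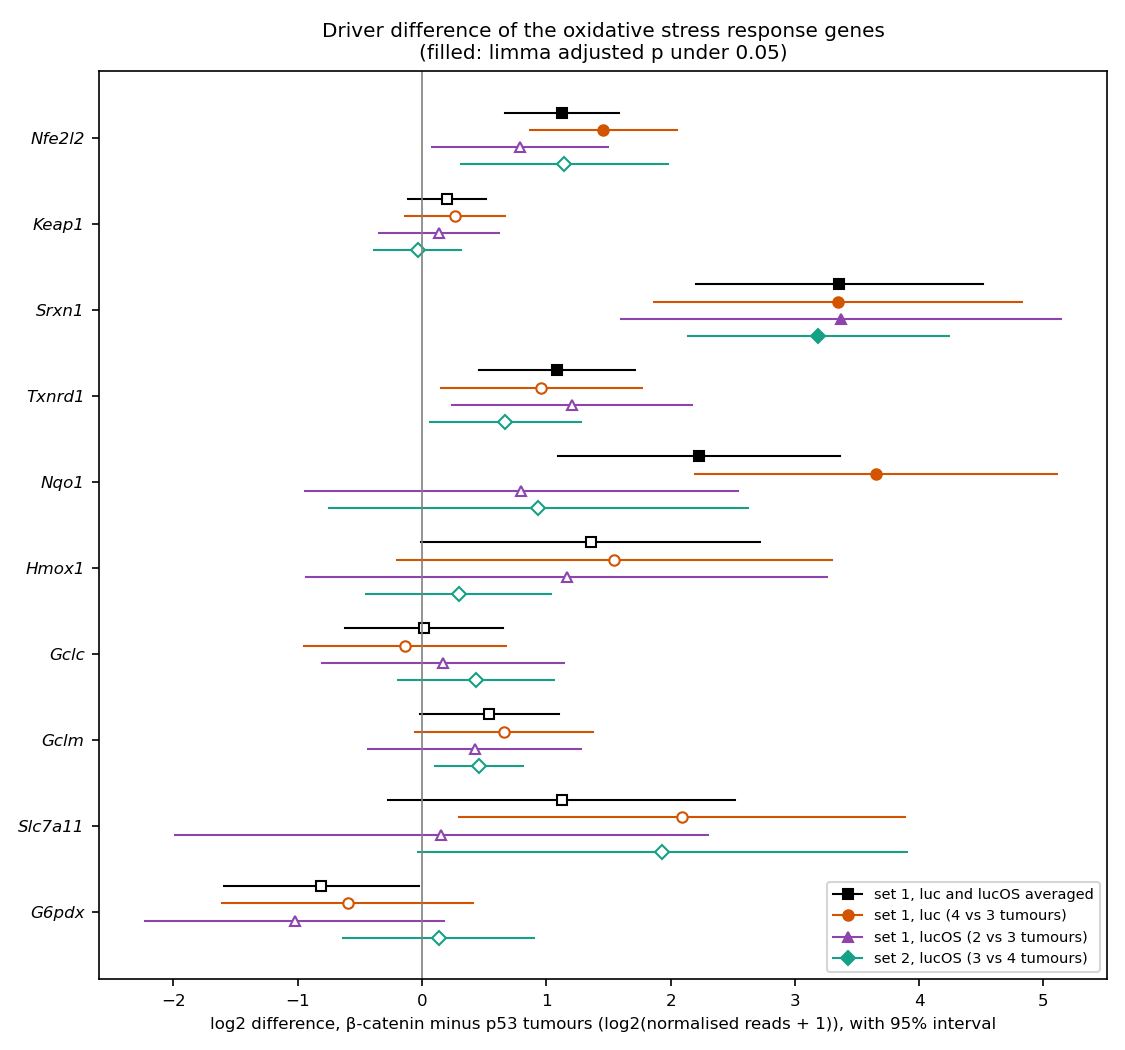
Difference between β-catenin and p53 tumours for each gene, in log2(normalised reads + 1), with 95% intervals from limma; filled symbols passed an adjusted p of 0.05. The 4 intervals of Srxn1 lie between 1.60 and 5.14 with filled symbols throughout, Nqo1 stands at 3.66 with luc and 0.80 with lucOS in set 1 (adjusted p of the difference 0.9998), and Keap1 and Gclc lie around 0.

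The plot of driver differences sets the 4 comparisons of each gene side by side. The median difference of the 10 genes was log2 1.21 among luc tumours of set 1, 0.61 among its lucOS tumours, 1.10 averaged over both and 0.56 in set 2, against -0.20, -0.15, -0.16 and -0.16 over all genes tested. Groups that did not overlap, with β-catenin above, were seen for 4 of the 10 genes among luc tumours (Nfe2l2, Nqo1, Txnrd1 and Srxn1), where 10.9% of all genes separated so. The number was 2 among the lucOS tumours of set 1 (Nfe2l2 and Srxn1), where 13.5% did, and 1 among those of set 2 (Srxn1), where 10.3% did. Called counts depended on the tool more in set 2 than elsewhere: 1 gene by limma, 3 with TMM scaling, 4 by edgeR and 5 by DESeq2, all higher, and 0 in the tumours named JAX. The share of all genes called higher moved too: it was 6.08% by limma, 8.43% with TMM scaling, 8.55% by edgeR, 13.8% by DESeq2 and 0.139% in the tumours named JAX. The luc and lucOS comparisons of set 1 share no tumours but share 1 estimate of the spread.

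Whether the antigen construct changed these genes was asked by setting lucOS against luc within a driver. By limma none of the 10 genes was called among p53 tumours or β-catenin tumours of set 1, in the interaction of driver and construct, or among β-catenin tumours of set 2, where the share of all genes called was 0.0% in each. At an unadjusted p under 0.05 there were 2, 0, 1 and 0 genes by limma, 2, 1, 1 and 1 by edgeR and 2, 2, 1 and 1 by DESeq2. The share of all genes at that unadjusted threshold was not counted, so these numbers cannot be set against it. Neither edgeR nor DESeq2 called any of the 10 at an adjusted p under 0.05. Among p53 tumours the 2 were Nfe2l2, at 3720.1 to 5151 with lucOS and 1495 to 3402 with luc (lucOS minus luc log2 0.83, 0.20 to 1.46, unadjusted p = 0.0144, adjusted p = 0.952), and Nqo1, at 50.9 to 230.1 with lucOS and 23.1 to 63.8 with luc (log2 1.71, 0.16 to 3.27, unadjusted p = 0.0338, adjusted p = 0.952). Nfe2l2 did not overlap between these groups and Nqo1 did, but the share of all genes that separated lucOS from luc tumours was not counted. Among β-catenin tumours the lucOS minus luc difference of Nqo1 was log2 -1.14 in set 1 (-2.80 to 0.51) and 0.06 in set 2 (-1.74 to 1.86). For Slc7a11 it was -1.74 in set 1 (-3.77 to 0.29) and 1.75 in set 2 (-0.35 to 3.85), opposite in sign between the sets. For Srxn1 it was 0.19 in set 1 (-1.49 to 1.87) and 0.74 in set 2 (-0.38 to 1.87). Each of these intervals reaches beyond 2-fold in at least 1 direction, so for these genes a construct effect of that size was not excluded. The intervals of Keap1 lay within 2-fold, at -0.17 to 0.69 among p53 tumours of set 1. Among β-catenin tumours they were -0.33 to 0.59 in set 1 and -0.37 to 0.38 in set 2. The absence of calls is not a sign that there is no effect.

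**Figure D4:**
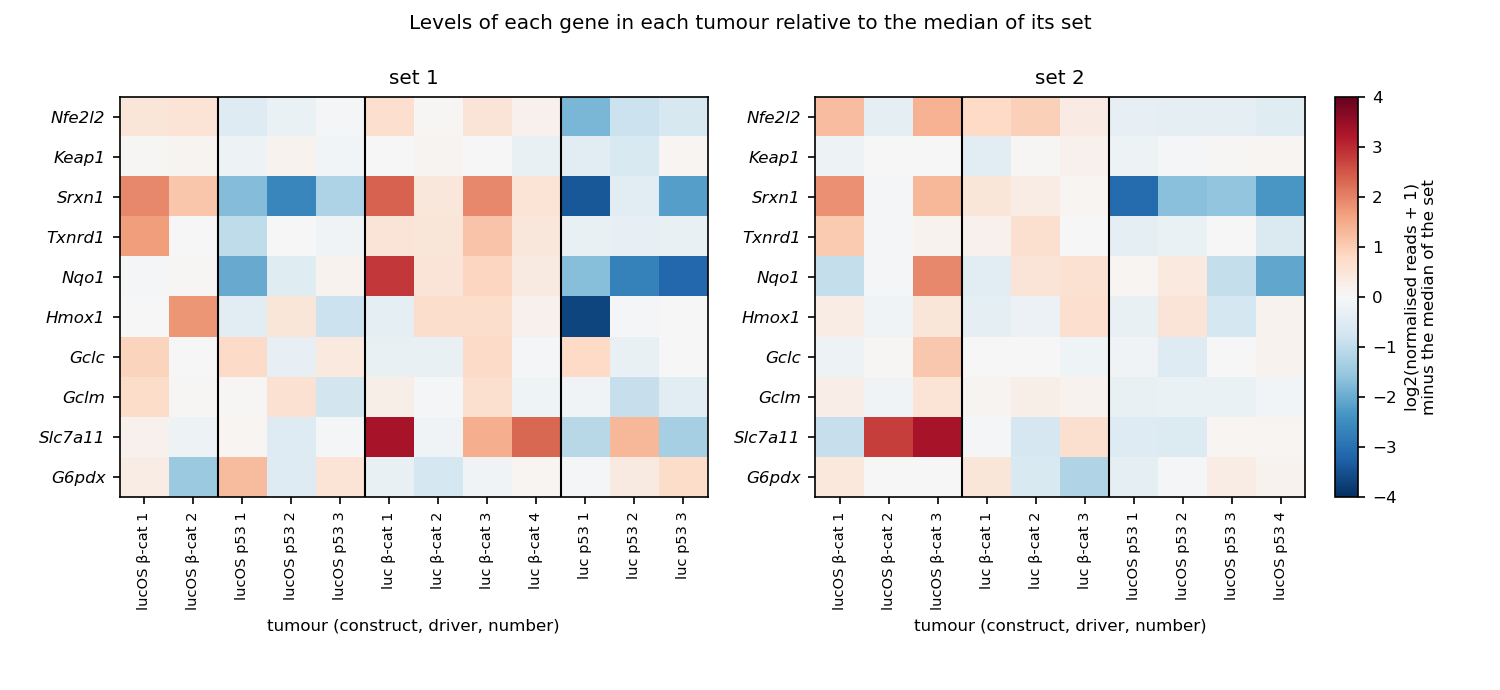
Level of each gene in each tumour as log2(normalised reads + 1) minus the median of that gene over its set, with red above and blue below the median and black lines between groups. Srxn1 is red in the β-catenin columns and blue in the p53 columns apart from pale ones, and lucOS β-catenin tumour 3 of set 2 is the reddest column there for Nqo1, Gclc and Slc7a11.

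The members did not rise as a block within single tumours, as the map of tumours shows. Among the lucOS β-catenin tumours of set 2, tumour 3 had the highest level of 7 of the 10 genes, tumour 1 that of Srxn1, Txnrd1 and G6pdx, and tumour 2 that of none and the lowest level of 5. Slc7a11 nevertheless stood at 211 in tumour 2, with Nfe2l2 at 3042, and at 15.3 in tumour 1, with Nfe2l2 at 9374. Of the luc β-catenin tumours of set 1, tumour 1 was highest for Nfe2l2, Srxn1, Nqo1 and Slc7a11 and lowest for Hmox1. Tumour 2 of that group was lowest for 5 genes. In the luc p53 group the spread of Srxn1, between 113 and 874, was wider than that of Txnrd1, between 5999 and 6220.4.

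Genes around the same pathway were counted in lists written from general knowledge, but with earlier results of these data known. The counts are thus a description and no independent support. Of all genes tested, 9.73% rose and 18.6% fell in the averaged comparison of set 1, and 6.08% rose and 10.9% fell in set 2. In a list of 24 other genes known as NRF2 targets, 14 rose in β-catenin tumours in the averaged comparison of set 1 and 14 in set 2, with medians of log2 1.41 and 1.44. None fell in either by limma, edgeR or DESeq2, and 1 lay lower at an unadjusted p under 0.05 by limma in set 1. Ephx1, which hydrolyses epoxides, averaged 25298 ± 14720 (SD, n = 2) in lucOS β-catenin tumours of set 1 against 1647 ± 1157 (n = 3) in lucOS p53 tumours, and rose by log2 4.89 in set 1 and 3.84 in set 2 (adjusted p = 0.000127 and 0.000412). Aox1, an aldehyde oxidase, rose by 4.14 and 4.25, the carbonyl reductase gene Cbr3 by 2.85 and 3.88, and Blvrb, the biliverdin reductase gene, by 2.81 and 1.69. Many of these genes belong to drug metabolism of hepatocytes as well, and the list also holds glutathione transferases, some near-identical copies of each other whose reads may be split between them. Of 11 genes that control NRF2, 2 rose and 2 fell in set 1 and 1 rose in set 2: Sqstm1, the p62 adaptor that competes for KEAP1, rose by 1.11 (adjusted p = 0.0079) and Mafk, a binding partner of NRF2, by 0.76 (adjusted p = 0.0135) in set 1, while Cul3 and Rbx1, the ligase that KEAP1 works with, fell there and Mafg, another partner, rose in set 2. The count that fell in set 1 and the count that rose in set 2 lay near the shares of all genes. In set 1 edgeR called 3 of the 11 higher and none lower, with 1 lower at an unadjusted p under 0.05, and DESeq2 called 3 higher and 1 lower. The shares of all genes given here are limma's, so counts by edgeR and DESeq2 cannot be set against them.

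The lists that follow stand beside the same shares of all genes, 9.73% higher and 18.6% lower in set 1, and 6.08% and 10.9% in set 2. Among NADPH suppliers other than G6pdx, 4 of 12 rose and 1, the folate enzyme gene Mthfd2, fell in set 1, and 3 of 10 rose and 1, the mitochondrial transhydrogenase gene Nnt, fell in set 2. Me1, the cytosolic malic enzyme, rose by log2 2.94 and 3.15 (adjusted p = 0.00276 and 0.0138), and Pgd and Taldo1, later steps of the pentose phosphate pathway, by 0.80 and 1.27 and by 0.76 and 1.12. Of 15 genes of glutathione synthesis and breakdown, 8 rose in set 1 and 5 in set 2, and none fell by limma, edgeR or DESeq2 (1 lower at an unadjusted p under 0.05 by limma in set 1). They included Gss, the second enzyme of glutathione synthesis (0.81 and 0.67), Cth, which makes cysteine from cystathionine (1.10 and 1.49), Ggct (1.20 and 1.13) and the glutathione peroxidase Gpx1 (1.20 and 1.28). Of 20 genes that remove superoxide and peroxides, 8 rose and 1, Sesn3, fell in set 1 and 4 rose in set 2, with catalase (Cat) at 1.42 and 1.63 and the peroxiredoxin Prdx6 at 0.85 and 0.86. Prdx3, a mitochondrial peroxiredoxin that sulfiredoxin repairs, rose by 0.89 and 0.79. Of 14 ATF4 targets, genes of the amino acid response to which Slc7a11 also belongs, 1 fell in set 1 by limma and none in set 2, where 3 lay lower at an unadjusted p under 0.05 and edgeR and DESeq2 called none. None rose by limma, while edgeR and DESeq2 each called 1 higher in set 1. The gene that fell was Psat1, a serine synthesis enzyme (-2.03 with adjusted p = 0.0031 in set 1, -2.38 with adjusted p = 0.0581 in set 2). Of 10 tested genes of heme breakdown and of the receptor AHR, which also acts on Nqo1, 6 rose in set 1 and 4 in set 2, with Cyp1a2 at 5.85 and 4.98 and Ahr at 2.01 and 1.81. The median of the ATF4 list in set 1 was -0.10 as deposited and 0.07 under TMM scaling.

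**Figure D5:**
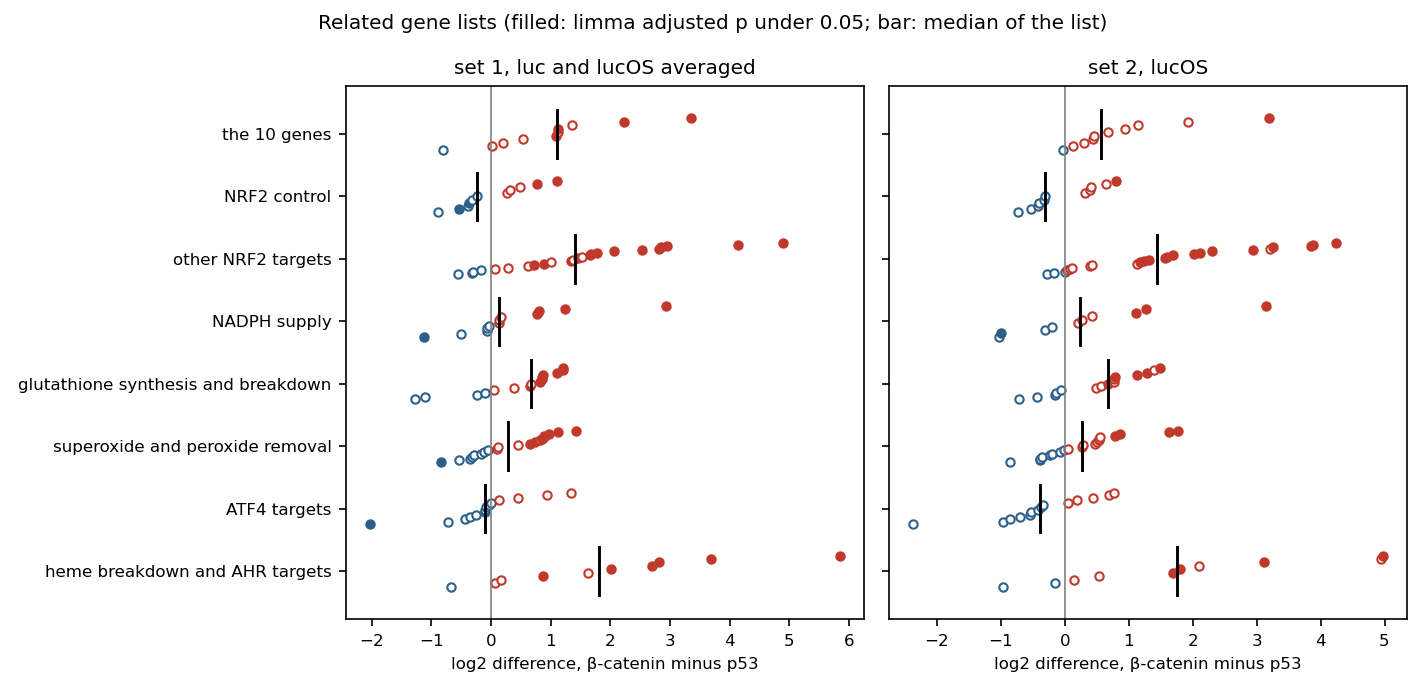
Difference between β-catenin and p53 tumours in log2(normalised reads + 1) for each gene of the 10 members and of 7 related lists, with red above 0, blue below it, filled points for a limma adjusted p under 0.05 and a bar at the median of the list. Other NRF2 targets lie mostly right of 0, with medians of 1.41 and 1.44 in sets 1 and 2. The genes that control NRF2 have medians of -0.23 and -0.32 and the ATF4 targets of -0.10 and -0.39. The median over all genes tested was -0.16 in both.

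Among the cell type markers, the T cell genes Cd3g, Cd8a, Cd8b1 and Lck fell in β-catenin tumours in the averaged comparison of set 1, 4 of 8, and 7 of 8 fell in set 2. Of all genes tested, 18.6% fell in the first comparison and 10.9% in set 2. Summed over the 8, they ran from 73.7 to 186 in β-catenin tumours of set 1, against 162 to 728 in its p53 tumours. In set 2 the sum ran from 124 to 134 in lucOS β-catenin tumours, against 379 to 903 in lucOS p53 tumours. Of the 9 hepatocyte markers, Alb and Trf rose in set 1, and none was called in set 2 by limma, edgeR or DESeq2, with 0, 1 and 1 at an unadjusted p under 0.05. Neutrophil, endothelial, stellate and red blood cell markers were not called in the averaged comparison of set 1 by limma, although 3 of 7 neutrophil, 1 of 8 endothelial and 1 of 7 red blood cell markers had an unadjusted p under 0.05 and DESeq2 called 2 neutrophil markers lower. In set 2, by limma, Csf3r, Cxcr2, Pecam1 and Cdh5 fell and Dcn and Reln rose. The part of these cell types in the members' differences was not tested.

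The genes whose pattern over tumours was most like that of Nqo1, by the smaller of its Pearson r over the 12 tumours of set 1 and the 10 of set 2 among 15378 genes, were Nat6 (0.86), Spsb2 (0.85) and Gstm6 (0.84). For Slc7a11 they were Slc16a10 (0.76), Sfmbt2 (0.75) and Bcl2l1 (0.74), and for Hmox1 Fam129b (0.78), Rhog (0.74) and Stoml1 (0.72). The tumours differ in driver and construct, so these values describe likeness over mixed groups and carry no test. Between members, the smaller r with Nqo1 was highest for Slc7a11 (0.49) and Gclm (0.48) and stood at 0.45 for Nfe2l2.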

How the data were processed

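RNA sequencing of 22 mouse liver tumours was used in 2 deposited tables of normalised signal, which the authors made, per the submitters' processing notes, with TopHat2, featureCounts and DESeq2 on mm10; versions are not given in the sources used here. Dividing each deposited value by the smallest step of its tumour gave whole reads (100% of values, tolerance 0.01 reads), from which depth and the count tests were taken. The tables were scaled separately and only tested within a set. In set 1, where 33068 transcripts were listed, each gene was represented by its transcript of highest mean. Genes had to reach 10 in 2 or more tumours of set 1, or 3 or more of set 2.

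Log2(value + 1) was fitted with limma 3.58.1 (trend) in R 4.3.3, all groups of a set together, with Benjamini-Hochberg adjustment over all genes kept and calls at an adjusted p under 0.05. Adjusted p-values are limma's unless edgeR 4.0.16 (quasi-likelihood) or DESeq2 1.42.0, run on recovered reads, is named. The fit was tested on simulated data. Fold changes on this scale understate those of low genes. Counts at an unadjusted p under 0.05 have no share of all genes beside them. Alternatives were other pseudocounts, filters, scalings, tools, sample choices and leaving out each tumour. The members and all lists were chosen with earlier results of these data known. All 10 members are named; from each list those called in both sets, at most 4 per direction by size, or else at most 2 called in either, and the 3 most similar genes for 3 members. Cul3, Rbx1, Mafg, Mthfd2, Nnt, Sesn3, Cd163, Csf1r and Marco were named after their values were seen. Positions are GENCODE vM21 on GRCm38, promoters RefSeq GRCm38.p6.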

Additional observations from a re-analysis of the deposited data

Results flagged for a closer look

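Each of the 10 genes was examined for 1 value far from the rest in luc β-catenin tumours of set 1 and lucOS p53 tumours of set 2. These are the groups of 4 tumours. Of the 20 pairs of gene and group, 2 held such a value, both in the luc β-catenin group. Chance alone gives about 1 in 20 for independent, normally distributed values, but the genes share tumours and the values were not logged. Nqo1 stood at 1504 normalised reads in luc β-catenin tumour 1 of set 1, against 272 to 383 in the other 3 tumours of its group. Without that tumour the log2 difference of Nqo1 among luc tumours was 3.09, still called. Txnrd1 stood at 16744 in luc β-catenin tumour 3 of set 1, against 10353 to 10884 in the other 3.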

How the results depend on the processing

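No paired analysis was possible because the replicate numbers only follow accession order and pair no tumours. The number of the 10 genes called between β-catenin and p53 tumours moved as follows. Among luc tumours of set 1 it was 5 by DESeq2, against 3. Among lucOS tumours of set 1 it was 0 without the filter, 0 in a fit of these groups alone, 2 by DESeq2 and 0 to 0 when a tumour was left out, against 1. In set 2 it was 3 with TMM scaling, 2 with median centring, 4 by edgeR, 5 by DESeq2 and 0 in tumours named JAX, and 1 to 3 when a tumour was left out, against 1. Calls over all genes, in either direction, moved too. Under the alternatives that leave out no single tumour, they ran from 1785 to 3303 among luc tumours of set 1 (2431 as reported). Among its lucOS tumours they ran from 19 to 2031 (678). In the averaged comparison of set 1 the number of the 10 genes called was 4 under each alternative and 4 to 6 when a tumour was left out. Calls over all genes there ran from 3774 to 5073 and from 3075 to 4775 (4562). The calls of Nfe2l2, Nqo1 and Srxn1 in that comparison and among luc tumours held under every alternative run.

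Signs turned only for differences that were not called. For Gclc between drivers, TMM, edgeR and DESeq2 gave log2 0.0518, 0.0422 and 0.0352 among luc tumours, and leaving out tumours gave -0.38 to 0.18 there, -0.29 to 0.62 among lucOS tumours of set 1 and -0.21 to 0.24 averaged. For Keap1 in set 2, TMM, median centring, edgeR and DESeq2 gave 0.12, 0.0821, 0.12 and 0.12, and leaving out tumours -0.0900 to 0.0334. G6pdx in set 2 was -0.0033 in tumours named JAX and -0.0055 to 0.23 with tumours left out, and Slc7a11 among lucOS tumours of set 1 was -0.0289 to 0.34.

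Between lucOS and luc among p53 tumours, edgeR and DESeq2 gave -0.18 and -0.19 for Srxn1 and -0.27 and -0.29 for Slc7a11, with -0.52 to 0.95 and -0.28 to 1.04 when tumours were left out. Srxn1 ran from -0.22 to 0.60 among β-catenin tumours of set 1. In the interaction it was -0.0151 with TMM and -0.0166 with median centring, and -0.76 to 0.71 with tumours left out. Among β-catenin tumours of set 2, Nfe2l2 ran from -0.27 to 0.62 and Nqo1 from -0.74 to 0.69. The causes were not tested.

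Over all genes, calls between drivers ranged under the alternatives from 812 to 3303 among luc tumours (2431 as reported), 19 to 2031 among lucOS tumours of set 1 (678) and 23 to 3842 in set 2 (2656), so an adjusted p there depends on the setting. Depth was not the limit for Nfe2l2, Srxn1 and Txnrd1. Nqo1, though called, rested on 47, 28 and 30 reads in luc p53 tumours 1 to 3 of set 1, and Slc7a11 on 8 to 371 reads per tumour.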
